A study of Mus musculus with 31 samples.

Results

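The 39 genes described here are interferon-stimulated genes and genes that carry peptides to the cell surface on class I molecules. They were chosen as rows of the deposited count table by gene symbol, and all 39 of the 39 symbols were found among the 24421 genes of the table. All 39 also passed the filter on low counts, which kept 14036 genes. They were grouped by role into 5 transcription factors, 4 RNA sensors, 15 antiviral effectors, 6 GTPases, 1 chemokine, 3 subunits of the immunoproteasome and 5 genes of peptide transport and class I molecules. Fibroblasts, which build and repair connective tissue, were taken fresh from hearts of C57Bl/6 mice aged 8 to 12 weeks and held in different spatial arrangements before RNA sequencing. The 29 libraries formed 10 groups, and 9 of these had 3 libraries. The group 3D-2D had 2. The groups were 3D-2D-3D, 3D-2D-2D, 3D-2D, 3D, 2D, 3D-5days, 2D-5days, 2D-64kPa, 2D-8kPa and 2D-0.5kPa. A name in several parts, such as 3D-2D, is taken here to list the arrangements in the order in which cells passed through them, with kPa as substrate stiffness and 5days as time in culture. All groups share the strain and the cell source, and no agent was added according to the labels. The sources used here give no time for each step, no substrate material and no number of mice per library, and do not say whether replicates are separate cultures. Errors and p-values therefore describe library-to-library spread, and this may be technical. A pair of chromatin accessibility samples, 1 of 2D and 1 of 3D, was not analysed here.

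As background, interferons are secreted proteins that warn cells of infection. Type I interferons bind the receptor made of Ifnar1 and Ifnar2, and interferon gamma binds the one made of Ifngr1 and Ifngr2. Janus kinases at these receptors then activate STAT proteins, which enter the nucleus. A complex that holds Stat2 and Irf9 binds the interferon-stimulated response element, and activated STAT proteins bind the gamma-activated site. The genes switched on block viral entry, translation and release, and raise the display of peptides on class I molecules. Fibroblasts can run this programme at a low level without infection, and macrophages, which share the heart with them, run it too.

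The promoters show which of these elements the members carry near their starts. RefSeq promoter windows of build GRCm38.p6, which run from 250 bases before to 50 bases after each annotated start, were at hand for 32 of the 39 members. The letters GAAANNGAA of the interferon-stimulated response element, searched on both strands, were found in windows of 18 of these 32 members (56.2%), against 9.76% of all 27025 genes with a window. The letters TTCNNNGAA of the gamma-activated site were found in 11 of 32 (34.4%), against 9.55% of all genes. Matches of the 2 motifs overlapped each other in Bst2 and Ifitm3. By role, the response element letters were in 3 of 3 RNA sensors, 7 of 11 antiviral effectors, 5 of 5 GTPases and the chemokine Cxcl10. They were in 1 of 5 transcription factors (Stat2), 0 of 3 immunoproteasome subunits and 1 of 4 genes of peptide transport and class I molecules (B2m). The gamma-activated letters were in Irf1, Irf8, Eif2ak2, Ifit2, Ifi35, Ifitm3, Oas1a, Bst2, Gbp7, Igtp and Psmb8. A match of letters is a description and not a bound site, and a window without a match says only that these letters are not in it.

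The windows below show the range of the members. Isg15, Ifit1 and Ifit3 had the largest number of response element matches, Gbp2 and Irgm1 are GTPases with a match that moved in opposite directions in 3D-2D against 3D, and B2m and Tap1 serve class I molecules. Capitals mark matches of the response element letters on either strand. All are written 5′ to 3′ on the strand of the gene. The windows lie in mm10 coordinates at chr4:156200769-156201068 (minus strand) for Isg15, chr19:34640639-34640938 (plus strand) for Ifit1, chr19:34583279-34583578 (plus strand) for Ifit3, chr11:48871371-48871670 (minus strand) for Irgm1, chr3:142620413-142620712 (plus strand) for Gbp2, chr2:122147437-122147736 (plus strand) for B2m and chr17:34187306-34187605 (plus strand) for Tap1.
Isg15: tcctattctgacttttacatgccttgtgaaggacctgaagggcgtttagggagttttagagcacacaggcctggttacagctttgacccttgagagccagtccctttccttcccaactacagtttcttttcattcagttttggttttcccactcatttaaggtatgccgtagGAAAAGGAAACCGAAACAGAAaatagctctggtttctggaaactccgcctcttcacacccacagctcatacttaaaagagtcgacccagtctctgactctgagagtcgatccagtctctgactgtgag
Ifit1: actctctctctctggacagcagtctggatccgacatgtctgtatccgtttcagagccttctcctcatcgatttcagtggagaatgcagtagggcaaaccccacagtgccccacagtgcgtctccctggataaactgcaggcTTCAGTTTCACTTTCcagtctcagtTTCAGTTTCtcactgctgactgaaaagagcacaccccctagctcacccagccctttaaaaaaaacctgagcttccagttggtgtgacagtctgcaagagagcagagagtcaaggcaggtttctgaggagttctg
Ifit3: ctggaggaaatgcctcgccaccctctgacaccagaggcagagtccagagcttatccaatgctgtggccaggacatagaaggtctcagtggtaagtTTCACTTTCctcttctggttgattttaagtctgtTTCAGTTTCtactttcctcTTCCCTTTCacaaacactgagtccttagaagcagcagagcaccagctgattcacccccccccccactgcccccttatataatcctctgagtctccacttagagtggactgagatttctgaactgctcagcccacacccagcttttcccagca
Irgm1: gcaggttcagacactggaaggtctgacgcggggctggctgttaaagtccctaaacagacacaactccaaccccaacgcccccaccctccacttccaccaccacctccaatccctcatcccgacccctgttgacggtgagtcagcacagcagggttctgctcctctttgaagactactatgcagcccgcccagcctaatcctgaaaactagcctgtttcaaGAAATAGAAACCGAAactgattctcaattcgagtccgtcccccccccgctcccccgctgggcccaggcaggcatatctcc
Gbp2: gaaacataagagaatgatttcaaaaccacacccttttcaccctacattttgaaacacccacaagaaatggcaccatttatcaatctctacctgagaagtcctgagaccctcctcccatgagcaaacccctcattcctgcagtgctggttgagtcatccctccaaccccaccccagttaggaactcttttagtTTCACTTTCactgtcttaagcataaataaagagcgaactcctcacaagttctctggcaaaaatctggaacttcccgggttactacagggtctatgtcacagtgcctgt
B2m: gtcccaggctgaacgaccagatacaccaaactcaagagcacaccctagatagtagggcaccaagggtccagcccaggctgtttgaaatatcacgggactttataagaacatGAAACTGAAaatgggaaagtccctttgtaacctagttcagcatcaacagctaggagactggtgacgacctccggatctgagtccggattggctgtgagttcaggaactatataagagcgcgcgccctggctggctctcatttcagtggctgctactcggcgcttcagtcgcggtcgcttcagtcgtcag
Tap1: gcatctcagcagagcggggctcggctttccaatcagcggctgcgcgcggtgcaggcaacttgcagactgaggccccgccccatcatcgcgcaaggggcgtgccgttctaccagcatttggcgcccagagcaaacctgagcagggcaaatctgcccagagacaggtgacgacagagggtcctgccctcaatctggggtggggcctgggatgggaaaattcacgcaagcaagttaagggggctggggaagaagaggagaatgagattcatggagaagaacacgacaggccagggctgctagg
In Isg15 the matches begin 78, 72 and 66 bases before the start and form an unbroken run. Ifit1 has matches that begin 109, 103 and 84 bases before its start, and Ifit3 has its own at 155, 121 and 102 bases. Irgm1 has a pair that begins 30 and 24 bases before the start, Gbp2 has 1 at 58 bases and B2m has 1 at 139 bases. The Tap1 window holds neither motif. It shares 275 bases with the window of Psmb9, since these neighbours are transcribed away from each other.

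Gene counts summed to 8509987 to 29909400 in a library. Levels are given as CPM, which are counts scaled by the library total and a normalization factor. CPM does not correct for gene length, so levels are compared between libraries of 1 gene and not between genes. The fibroblast markers were abundant in every group, with summed levels of 17827 to 77141 CPM. Macrophage markers were present too: Ccr2 had 0 counts in 7 libraries and the others had reads in all 29. Their summed level was 244 to 271 CPM in 3D-2D-3D, 501 to 508 CPM in 3D-2D-2D and 661 to 892 CPM in 3D-2D. It was 9198, 6455 and 234 CPM in the 3D libraries, and 1328 to 1601 CPM in 2D. The range was 3320 to 12520 CPM in 3D-5days, 786 to 3250 CPM in 2D-5days and 420 to 2804 CPM on the substrates. In bulk RNA, fewer cells of a type and less RNA per cell cannot be told apart. The 9 markers of T and NK cells summed to at most 1.33 CPM in a library: Cd3e, Cd3g, Gzma and Gzmb had 0 counts in all 29, while Cd8a had reads in 27, Cd4 in 25 and Cd3d in 23. The 7 dendritic cell markers summed to 34.9 to 186 CPM in 3D-5days, 10.1 to 89.9 CPM in 3D and 5.64 to 83.9 CPM in the other groups. Itgax, Zbtb46 and Xcr1 of that list had reads in all 29 libraries, and Flt3 had 0 in 28. The highest level in a library was 180 CPM for Itgax, 10.8 CPM for Zbtb46 and 1.18 CPM for Xcr1. For Clec9a, Siglech, Ccr7 and Flt3 it was 0.326, 0.250, 0.136 and 0.0605 CPM. The high sums are thus mostly Itgax. Endothelial markers summed to 14.7 to 125 CPM and cardiomyocyte markers to 1.96 to 207 CPM. Of the cardiomyocyte list Tnnt2 reached 203 CPM in a library, and no other marker passed the 3.59 CPM of Tnni3. Reads of Xist and of Y-linked genes divided the libraries too. Replicates 1 and 2 of 3D-2D-3D, 3D and 2D and both 3D-2D libraries held Xist with 0 to 7 Y-linked reads. Both kinds of read were plentiful in replicate 3 of 3D-2D-3D, 3D and 2D, in 3D-2D-2D and at 5 days. On the substrates Xist had 1 to 7 reads and Y-linked genes had 1306 to 2935. The mix of these reads differed within 3D, 2D and 3D-2D-3D and between compared groups such as 3D-2D-3D and 3D-2D-2D. Its part in the values was not tested.

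The members did not vary freely within a group: in several groups 1 library was high for nearly all of them. In 2D, replicate 3 had the highest value of the group for 38 of the 39 members and for 44.5% of all genes. Its median difference from the mean of the group was 1.55 on the log2 scale over the members and 0.03 over all genes. In 2D-8kPa, replicate 1 was highest for 37 members and for 26.2% of all genes, with a median difference of 1.02 over the members. Replicate 3 of 3D-2D-3D was highest for 33 members (42.0% of all genes), replicate 1 of 2D-64kPa for 33 (27.5%) and replicate 2 of 3D-2D for 33 (52.7%). Among libraries low for most members, replicate 1 of 3D-2D was the lower of its pair for 33 (53.0% of all genes). Replicate 1 was lowest in 2D-5days for 31 (45.0%) and in 2D for 30 (30.2%). Replicate 3 was lowest in 2D-64kPa for 32 (41.7%), in 2D-8kPa for 29 (42.3%), in 2D-0.5kPa for 30 (40.4%) and in 3D for 26 (41.4%). The 3D-2D-2D libraries lay close together, with medians of 0.01, 0.02 and -0.05 over the members. Rsad2, which encodes the antiviral enzyme viperin, had 0.505, 0.735 and 0.910 CPM in 3D-2D-2D. The same gene had 0.915, 0.710 and 15.1 CPM in 2D. Replicate 3 of 2D was thus far above the other 2D libraries, while the 3D-2D-2D libraries were alike.

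**Figure D1:**
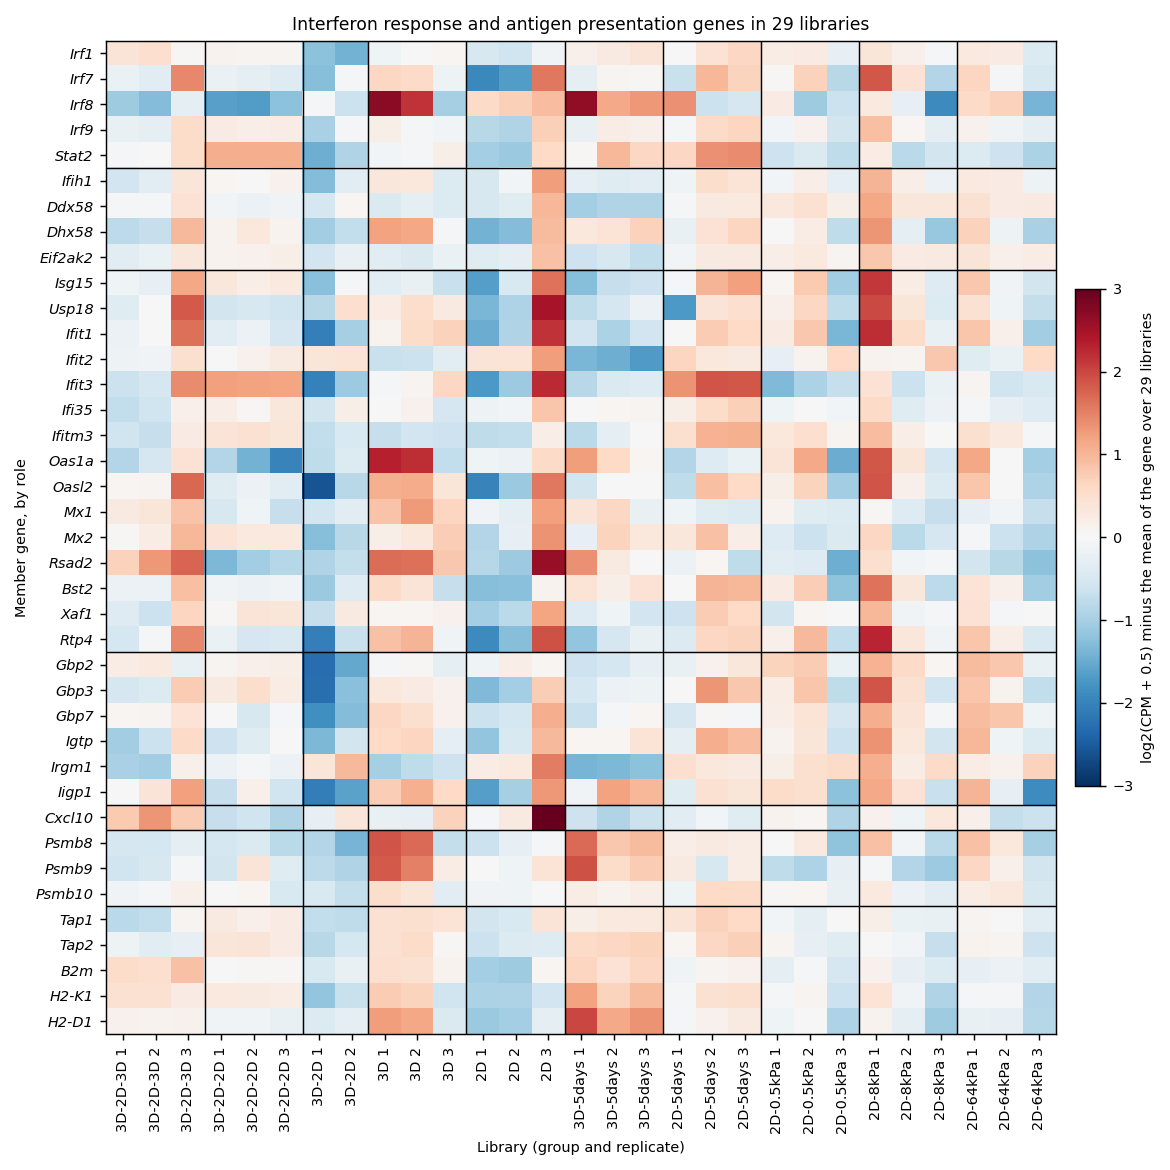
Heat map of the 39 members (rows, by role) in 29 libraries (columns, by group and replicate). Colour gives log2(CPM + 0.5) minus the mean of the gene over all libraries, with values past the ends of the scale drawn in the end colour, and vertical and horizontal lines part the groups and the roles. Replicate 3 of 2D and replicate 1 of 2D-8kPa are red for most rows, and the 3D-2D libraries are blue for most rows.

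Across the 10 groups, 3D-2D had the lowest mean for 24 of the 39 members, and 3D-5days had it for 6, 3D-2D-2D for 5, 2D for 2, and 3D and 3D-2D-3D for 1 each. The highest mean was in 2D-5days for 11 members, 2D-8kPa for 11, 3D for 8, 2D for 4, 3D-5days for 3, and 3D-2D-3D and 2D-64kPa for 1 each. The shares of all genes with their lowest or highest mean in each group were not counted, and the 3D-2D mean rests on 2 libraries. These counts are therefore not a result about the members. Irf1, a factor that turns on class I genes, had 7.64 and 6.67 CPM in 3D-2D and 12.2 to 29 CPM in all other groups. No other library came as low as the 3D-2D pair. Gbp2, a guanylate-binding protein, had 3.84 and 6.87 CPM in 3D-2D and 13.5 to 43.4 CPM elsewhere, again with no overlap. For most members, neighbours in the order of the groups overlapped. In Irf9, Irf7 and Isg15 all 9 pairs of neighbours overlapped, so the order within these genes is not set by the libraries.

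In 3D against 2D the genes of class I presentation were higher, 3 members were lower, and most antiviral genes did not pass the test. Of the 39 members, 7 were called higher and 3 lower in 3D (54.0% of all genes tested were called, 26.7% higher and 27.3% lower). Called means an adjusted p under 0.05 in edgeR. The median log2 fold change of the members was 0.20, and that of all genes was 0.03. The 7 were Psmb8 and Psmb9 of the immunoproteasome, both peptide transporter subunits and all 3 class I chains, so that 5 of 5 genes of peptide transport and class I molecules rose. Of the 5 transcription factors and 4 RNA sensors 0 were called, and 15 antiviral effectors gave 1 call.

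Psmb8, a catalytic subunit that makes the proteasome cut peptides suited to class I molecules, had 23.6, 20.7 and 3.47 CPM in 3D, against 3.66, 4.97 and 5.74 CPM in 2D. Replicates 1 and 2 of 3D were high, replicate 3 lay below all of 2D, and the groups overlapped. The log2 fold change was 1.72 ± 0.55 (SE, n = 3 each, adjusted p = 0.0124). H2-D1, a class I heavy chain, had 179, 166 and 55.4 CPM in 3D, against 34.4, 36.8 and 61.2 CPM in 2D. Here too replicate 3 of 3D fell among the 2D libraries (1.59 ± 0.36, adjusted p = 0.000738). Psmb9, the partner of Psmb8, had 5.23, 4.06 and 1.35 CPM in 3D, against 1.08, 0.946 and 1.61 CPM in 2D (1.50 ± 0.53, adjusted p = 0.0217). H2-K1, the other heavy chain, rose by 1.21 ± 0.32 and B2m, the light chain, by 0.93 ± 0.21. Tap2, which with Tap1 pumps peptides into the endoplasmic reticulum, rose by 0.86 ± 0.20 and Tap1 by 0.59 ± 0.22. B2m and Tap1 were the members of this set in which all 3D libraries lay above all 2D libraries, with 769, 749 and 578 CPM of B2m in 3D and 269, 260 and 567 CPM in 2D, and 33.5 to 34.9 CPM of Tap1 in 3D and 17.1 to 33.0 CPM in 2D. Tap2 did so too, with 38.9 to 55.2 CPM in 3D and 23.8 to 28.6 CPM in 2D. In all, the libraries did not overlap for 3 members higher in 3D (27.5% of all genes) and 2 lower (28.8%).

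The rises were not seen in every library. In replicate 3 alone, a comparison of 1 library with 1 in which both are assumed to vary like the rest, Psmb8 was at -0.71, Psmb9 at -0.22, H2-D1 at -0.12, H2-K1 at 0.00 and B2m at 0.05, none called. The summed macrophage markers were 9198 and 6455 CPM in 3D replicates 1 and 2, 234 CPM in 3D replicate 3 and 1328 to 1601 CPM in 2D. Of 20 tested macrophage markers 6 rose and 1 fell, beside 26.7% and 27.3% of all genes. Endothelial markers summed to 38.5 to 105.0 CPM in 3D and 38.3 to 50.05 CPM in 2D, with 3 of 10 called higher. Cardiomyocyte markers summed to 66.6 to 207 CPM in 3D and 10.3 to 25.4 CPM in 2D, with 1 of 5 called higher. The high cardiomyocyte sums are nearly all Tnnt2, since no other marker of that list passed 3.59 CPM in any library. The part of these cell types in the class I and immunoproteasome values was not tested. Irf8, a transcription factor of myeloid cells, followed the same libraries, with 50.3, 34.6 and 3.40 CPM in 3D, against 11.1, 12.2 and 14.4 CPM in 2D (1.22 ± 0.74, adjusted p = 0.168). Of 11 other class I presentation genes tested, 6 rose in 3D and 1 fell. The nonclassical heavy chain H2-T23 had 63.9, 61.0 and 65.1 CPM in 3D, against 9.15, 10.1 and 22.3 CPM in 2D (2.17 ± 0.38, adjusted p = 6.53e-05). Tapbp, or tapasin, which holds class I molecules at the transporter, had 323, 326 and 285 CPM in 3D, against 82.3, 86.9 and 145 CPM in 2D (1.57 ± 0.23, adjusted p = 5.06e-06). In both genes every 3D library lay above every 2D library.

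**Figure D2:**
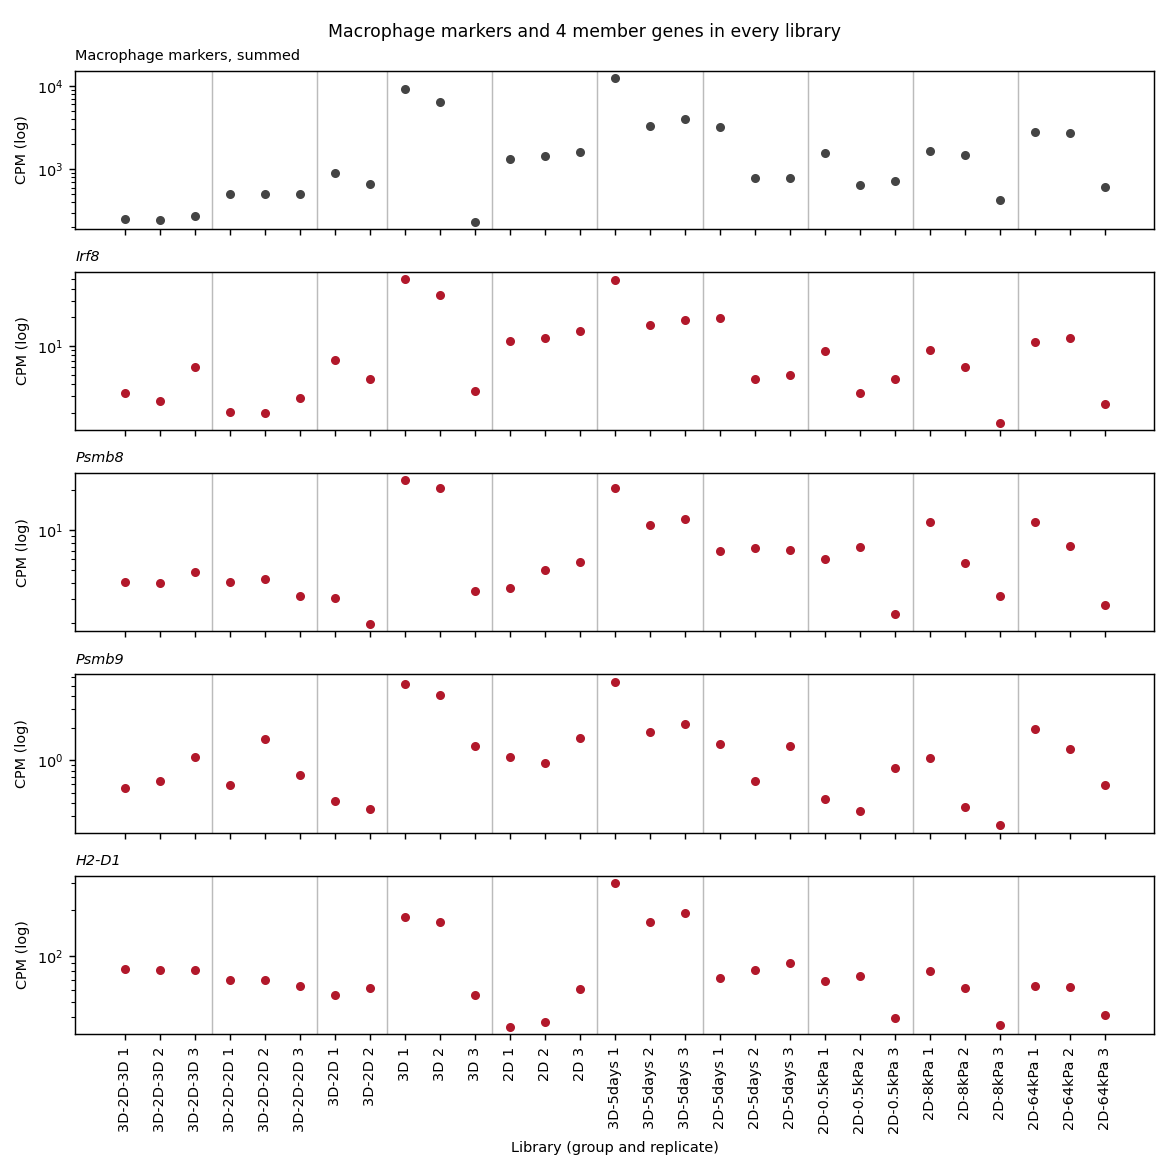
Summed CPM of 21 macrophage markers (top) and CPM of Irf8, Psmb8, Psmb9 and H2-D1 in each of 29 libraries, on log axes, with vertical lines between groups. Replicates 1 and 2 of 3D and replicate 1 of 3D-5days are high in the top panel and in the 4 genes. Replicate 2 of 3D-5days has 1.84 CPM of Psmb9, against 1.96 CPM in 2D-64kPa replicate 1. Replicate 3 of 3D, at 234 CPM of markers, is low in the top panel and has 3.47 CPM of Psmb8. H2-D1 is at 80.6 to 82.0 CPM in 3D-2D-3D, where the markers are at 244 to 271 CPM.

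The members lower in 3D were Cxcl10, Irgm1 and Ifit2. Cxcl10, a chemokine that draws T cells, had 0.305, 0.287 and 1.01 CPM in 3D, against 0.416, 0.631 and 8.85 CPM in 2D (-2.63 ± 0.81, adjusted p = 0.0093). The difference rested on 2D replicate 3, without which the value was 0.06 and not called. Irgm1, a GTPase of cell-autonomous defence, had 39.3, 46.6 and 51.2 CPM in 3D, against 92.2, 97.5 and 229 CPM in 2D. No 3D library reached a 2D library, and the log2 fold change was -1.61 ± 0.32 (adjusted p = 0.000229). Ifit2, whose protein binds RNA and slows translation, had 14.8, 15.3 and 19.3 CPM in 3D, against 31.4, 32.2 and 57.6 CPM in 2D, also without overlap (-1.30 ± 0.27, adjusted p = 0.000382). Ifi47, another GTPase of the Irgm1 kind and no member, had 1.04 to 3.10 CPM in 3D and 12.1 to 16.3 CPM in 2D (-2.67 ± 0.32). The most abundant members without a call were Ifitm3, a block to viral entry (-0.28 ± 0.28), and Ddx58, the sensor known as RIG-I (-0.59 ± 0.28).

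The antiviral genes depended on 2D replicate 3, the library high for 38 members. Ifit3 had 14.5, 16.0 and 23.5 CPM in 3D, against 4.24, 6.86 and 73.0 CPM in 2D. Oasl2, a relative of the oligoadenylate synthetases, had 36.6, 37.8 and 22.3 CPM in 3D, against 3.91, 7.73 and 52.7 CPM in 2D. All 3D libraries of both genes lay above 2D replicates 1 and 2 and below 2D replicate 3. Without that library 22 members were called, 20 higher and 2 lower (51.5% of all genes were called in that fit), among them Rsad2 (2.95), Iigp1 (2.53), Rtp4 (2.44), Oasl2 (2.44), Dhx58 (2.44) and Irf7 (2.30), each higher in 3D. In replicates 1 and 2 only, 21 members were higher and 2 lower (50.5% of all genes called). With the replicate number as a block, 3 members were called, 1 higher and 2 lower (37.9% of all genes called), and B2m, H2-D1, H2-K1, Psmb8, Psmb9, Tap1 and Cxcl10 lost their calls. Irgm1 and Ifit2 were called lower in every alternative run.

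**Figure D3:**
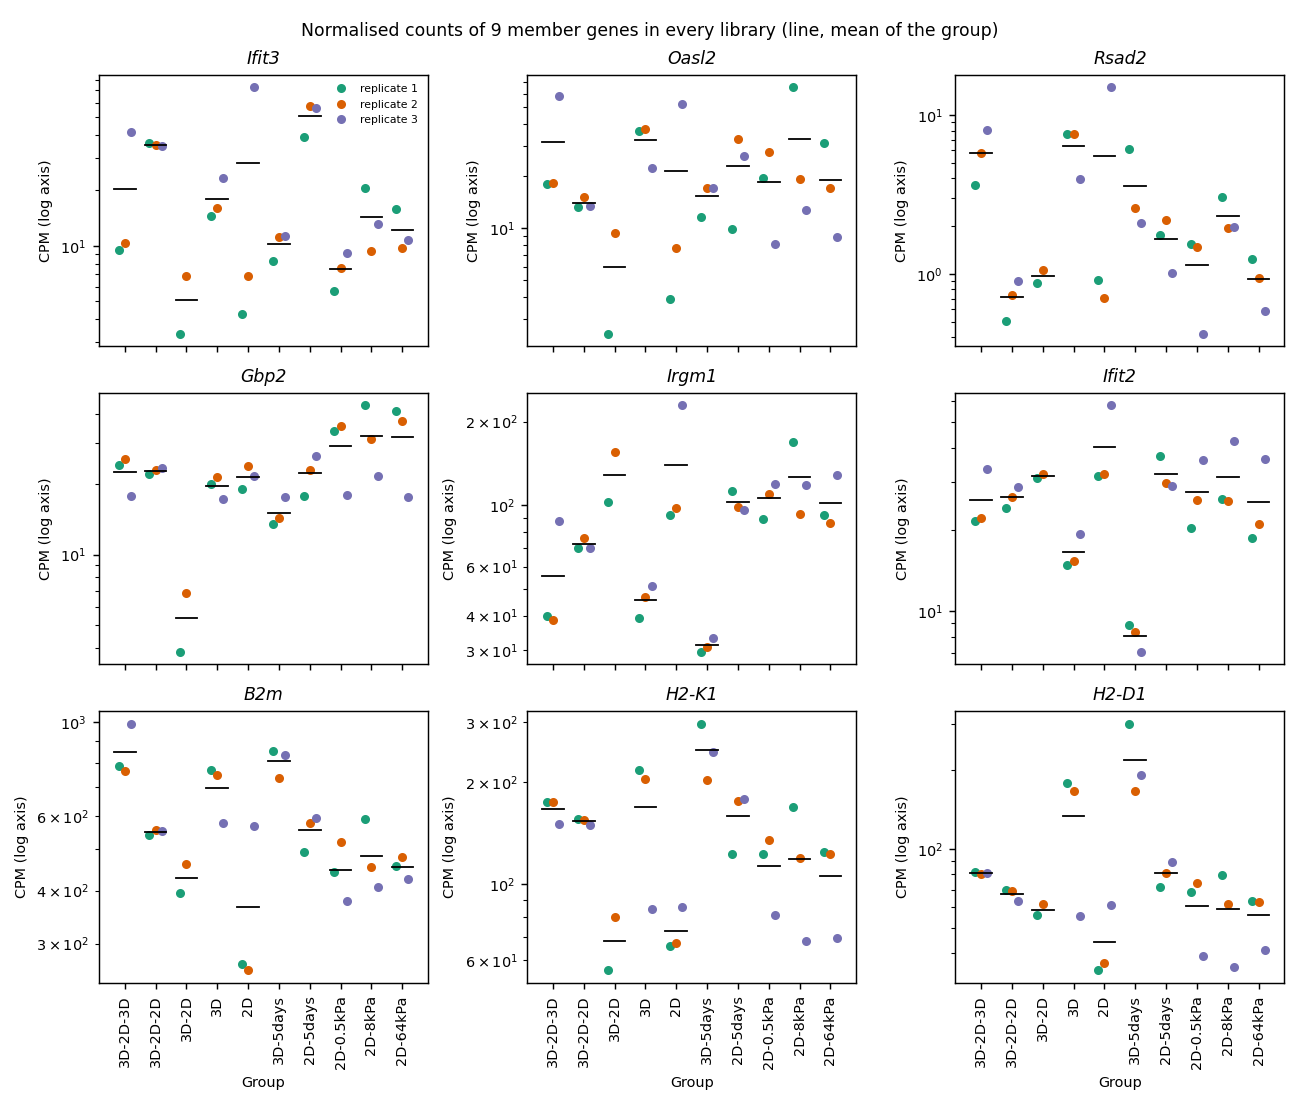
Normalised counts of 9 members in every library of the 10 groups (CPM, log axes), with colour for the replicate number and a line at the mean of the group. The 3D-2D libraries are the lowest for Gbp2 at 3.84 and 6.87 CPM, the 3D-5days libraries are the lowest for Irgm1 and Ifit2, and 2D replicate 3 stands above the other 2D libraries in most panels.

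After cells from 3D were moved to 2D, members of every role but the chemokine were lower. In 3D-2D against 3D, 2 members were called higher and 21 lower (56.5% of all genes tested were called, 28.8% higher and 27.7% lower). The median of the members was -1.23, and that of all genes was -0.02. Lower calls covered 3 of 5 transcription factors, 1 of 4 RNA sensors, 5 of 15 antiviral effectors, 4 of 6 GTPases, 3 of 3 immunoproteasome subunits and 5 of 5 genes of peptide transport and class I molecules. For 22 members all 3D-2D libraries lay below all 3D libraries (33.8% of all genes), and for 2 above (36.8%).

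Among the factors, Irf1 had 7.64 and 6.67 CPM in 3D-2D, against 17.0, 18.5 and 19.4 CPM in 3D. This difference of -1.35 ± 0.22 (n = 2 and 3, adjusted p = 2.58e-05) was larger than the spread of either group. Stat2 fell by 1.20 on the log2 scale (SE 0.42, adjusted p = 0.0193), and Irf8 fell by 2.34 (SE 0.89).

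Among the effectors, GTPases and proteasome subunits, several had few reads in 3D-2D. Iigp1, an immunity-related GTPase, had 0.376 and 0.702 CPM in 3D-2D, from 9 and 14 reads, against 5.59, 7.21 and 5.07 CPM in 3D (-3.46 ± 1.03, adjusted p = 0.00688). Mx1, of the dynamin-like GTPase family, had 0.0418 and 0.151 CPM in 3D-2D, from 1 and 3 reads, against 0.965, 1.48 and 0.764 CPM in 3D (-3.42 ± 0.95, adjusted p = 0.00427). Psmb9 had 0.418 and 0.351 CPM in 3D-2D, against 5.23, 4.06 and 1.35 CPM in 3D (-3.16 ± 0.69, adjusted p = 0.00054). The 3D-2D libraries lay below every 3D library in all 3 genes. Oas1a, an oligoadenylate synthetase, fell by 2.90 (SE 1.08), Rsad2 by 2.72 (SE 0.89) and Mx2 by 2.71 (SE 0.81). Oas1a was at 0.23 against 3D replicate 3 alone, with 0.668 and 1.0 CPM in 3D-2D and 9.50, 8.74 and 0.694 CPM in 3D. The remaining lower calls were Psmb8 (-2.65), Oasl2 (-2.45), Gbp7 (-2.19), Gbp3 (-2.09), Dhx58 (-1.89), Gbp2 (-1.87), H2-K1 (-1.31), Tap1 (-1.23), H2-D1 (-1.18), Tap2 (-1.05), Psmb10 (-0.83) and B2m (-0.70).

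The members that rose were again Irgm1 and Ifit2. Irgm1 had 102 and 155 CPM in 3D-2D, against 39.3, 46.6 and 51.2 CPM in 3D (1.50 ± 0.34, adjusted p = 0.000937). Ifit2 had 30.9 and 32.1 CPM in 3D-2D, against 14.8, 15.3 and 19.3 CPM in 3D (0.93 ± 0.30, adjusted p = 0.0107). Both groups were apart in both genes, and Ifi47 moved likewise (2.97 ± 0.34). This comparison shares its 3D libraries with the one above, so the opposite signs are not separate evidence. Ifitm3 (0.05 ± 0.32) and Ddx58 (0.17 ± 0.31) were the most abundant members without a call. Macrophage markers fell in 13 of 20 tested cases and endothelial markers in 8 of 10, beside 27.7% of all genes. Their part in the falls of the members was not tested. Against 3D replicate 3 alone, a single library whose spread is taken from the other groups, 10 members were called (45.2% of all genes called). Iigp1 (-3.26), Mx2 (-3.13), Mx1 (-2.97), Gbp7 (-1.91), Gbp2 (-1.72), Irf1 (-1.46), Stat2 (-1.38), Tap1 (-1.22) and Tap2 (-0.75) were lower there, and Irgm1 (1.30) was higher. Without 3D-2D replicate 1, 10 members were called, 2 higher and 8 lower (44.3% of all genes called).

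Set against cells kept in 2D, 3D-2D cells called 0 members higher and 4 lower (14.4% of all genes tested were called, 6.85% higher and 7.54% lower), while 37 of the 39 values were below 0. The median was -1.0, against 0.01 for all genes. Mx2 had 0.125 and 0.351 CPM in 3D-2D, against 0.333, 0.789 and 3.39 CPM in 2D (-2.76 ± 0.81, adjusted p = 0.0271). The groups overlapped in Mx2. Gbp2 had 3.84 and 6.87 CPM in 3D-2D, against 19.1, 23.9 and 21.6 CPM in 2D (-2.01 ± 0.35, adjusted p = 0.00102). Gbp7 had 1.75 and 2.76 CPM in 3D-2D, against 4.66, 5.05 and 16.5 CPM in 2D (-1.98 ± 0.49, adjusted p = 0.0103). Both guanylate-binding proteins were lower in 3D-2D with no overlap, as was Irf1 (-1.0 ± 0.22, adjusted p = 0.00525). B2m (0.23 ± 0.24) and Ifitm3 (-0.23 ± 0.32) were the most abundant members without a call. In all, 10 members were lower in every 3D-2D library (24.7% of all genes) and 0 higher (27.5%). The count of calls moved with single libraries: it was 8 without 2D replicate 1 (5.85% of all genes called), 8 without 2D replicate 2 (8.18%), 2 without 3D-2D replicate 1 (5.86%) and 1 without 3D-2D replicate 2 (1.25%). DESeq2 called 9 (18.1% of all genes).

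**Figure D4:**
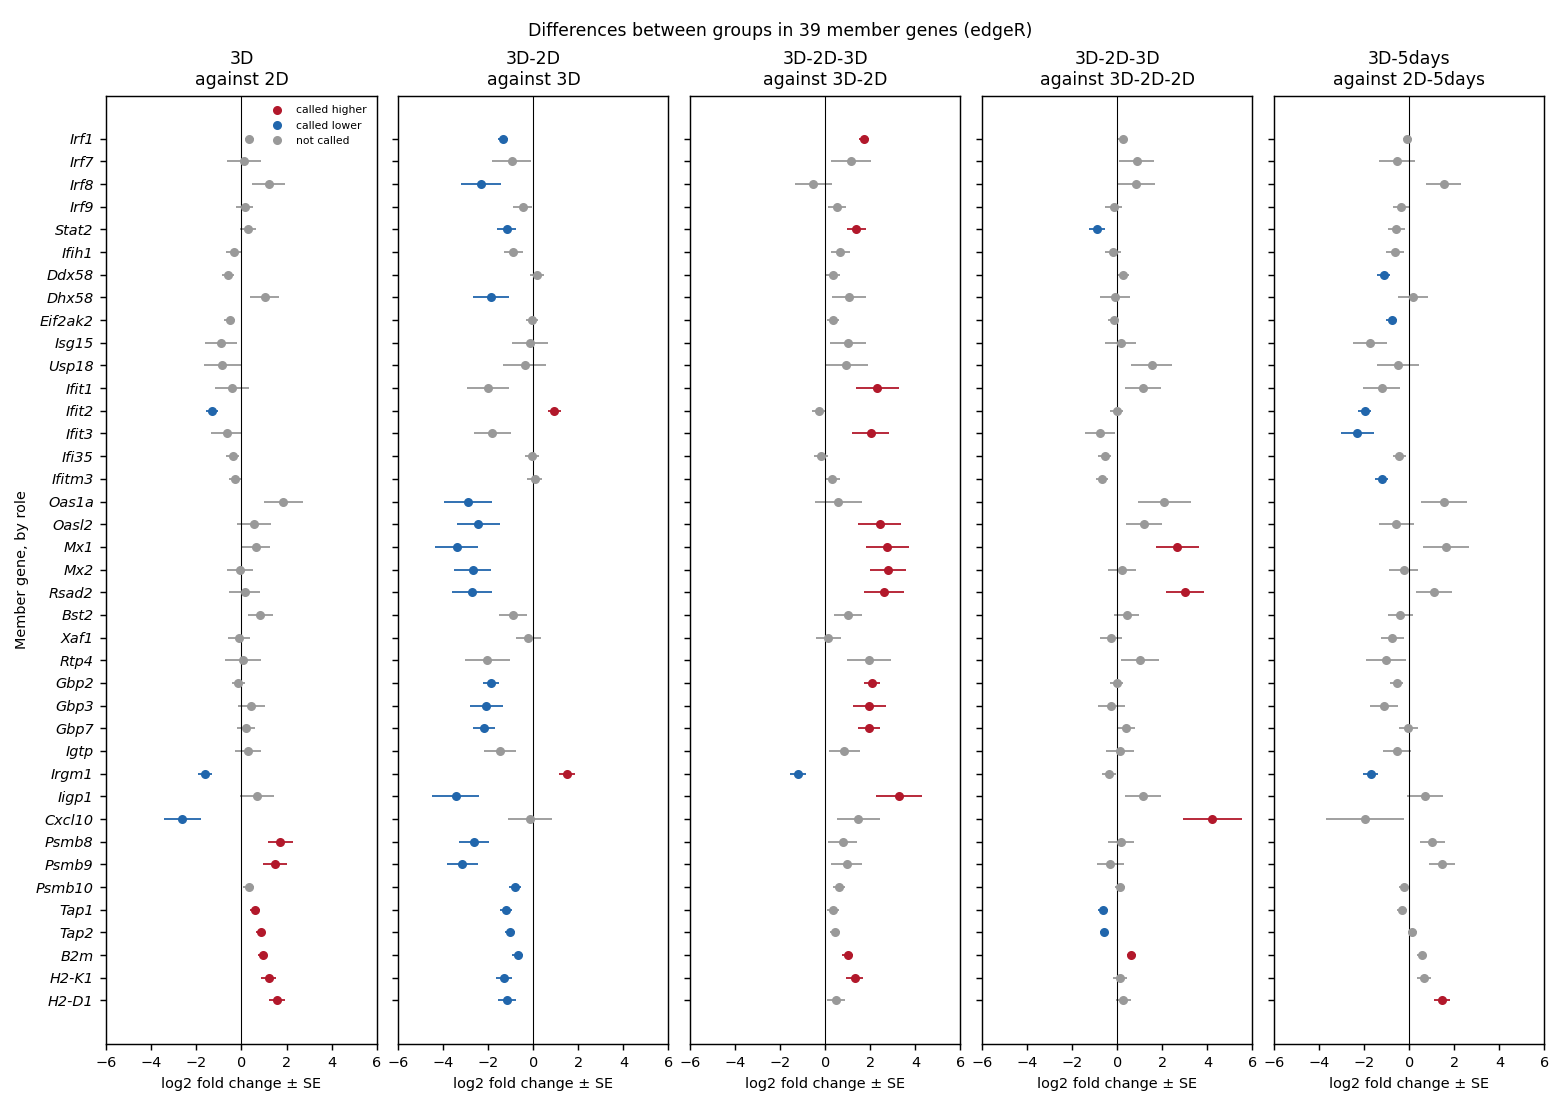
Log2 fold change ± SE of the 39 members (rows, by role) in 5 comparisons, with red for members called higher, blue for members called lower and grey for members not called. Most of the 3D-2D values against 3D lie left of 0 and most 3D-2D-3D values against 3D-2D lie right of 0, while Irgm1, at 1.50 and -1.22, is on the other side in both.

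When the cells were returned to 3D, the 3 guanylate-binding proteins, 6 of the antiviral effectors and Irf1 were higher than in 3D-2D. In 3D-2D-3D against 3D-2D, 14 members were called higher and 1 lower (49.2% of all genes tested were called, 24.2% higher and 25.0% lower). The median was 0.98, and that of all genes was 0.01. The calls held 2 of 5 transcription factors, 6 of 15 antiviral effectors, 4 of 6 GTPases and 2 of 5 genes of peptide transport and class I molecules as higher. RNA sensors gave 0 of 4 and the immunoproteasome 0 of 3. All 3D-2D-3D libraries lay above the 3D-2D pair for 22 members (37.7% of all genes) and below for 1 (38.5%). The 3D-2D libraries are those of the previous comparisons.

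Iigp1 had 3.21, 4.27 and 8.06 CPM in 3D-2D-3D, against 0.376 and 0.702 CPM in 3D-2D (3.27 ± 1.02, adjusted p = 0.0111). Mx2 had 1.06, 1.27 and 2.55 CPM in 3D-2D-3D, against 0.125 and 0.351 CPM in 3D-2D (2.77 ± 0.81, adjusted p = 0.00686). Mx1 had 0.477, 0.545 and 0.968 CPM in 3D-2D-3D, against 0.0418 and 0.151 CPM in 3D-2D (2.75 ± 0.96, adjusted p = 0.0214). In each of these genes every 3D-2D-3D library was above both 3D-2D libraries, and replicate 3 was the highest. Rsad2 (2.59 ± 0.88), Oasl2 (2.42 ± 0.95) and Ifit1 (2.31 ± 0.95) were the next largest rises, followed by Gbp2 (2.07), Ifit3 (2.02), Gbp7 (1.95), Gbp3 (1.94), Irf1 (1.70), Stat2 (1.36), H2-K1 (1.30) and B2m (0.98). Gbp2 had 24.2, 25.5 and 17.7 CPM in 3D-2D-3D, against 3.84 and 6.87 CPM in 3D-2D (adjusted p = 4.4e-05). Irf1 had 24.4, 26.6 and 19.3 CPM in 3D-2D-3D, against 7.64 and 6.67 CPM in 3D-2D (adjusted p = 1.98e-06). In both genes replicate 3 was the lowest of the 3D-2D-3D libraries and still above the 3D-2D pair.

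Irgm1 went the other way, with 39.7, 38.4 and 87.9 CPM in 3D-2D-3D, against 102 and 155 CPM in 3D-2D (-1.22 ± 0.34, adjusted p = 0.00553). Ifi47 was lower too, at 1.13 to 2.61 CPM in 3D-2D-3D and 15.8 to 17.9 CPM in 3D-2D (-3.34 ± 0.34). Ifitm3 (0.31 ± 0.32) and H2-D1 (0.47 ± 0.39) were the most abundant members without a call. Psmb8 had 4.06, 3.99 and 4.84 CPM in 3D-2D-3D, against 3.05 and 1.96 CPM in 3D-2D (0.77 ± 0.64, adjusted p = 0.328), and the 3D-2D-3D libraries lay below the 20.7 and 23.6 CPM of 3D replicates 2 and 1 and above the 3.47 CPM of 3D replicate 3. Macrophage markers were lower in 3D-2D-3D, at 244 to 271 CPM against 661 to 892 CPM in 3D-2D, with 20 of 20 values below 0. In edgeR 0 were called (4 at an unadjusted p under 0.05), beside 25.0% of all genes called lower. The count of called members was 9 without 3D-2D-3D replicate 3 (8 higher, 44.9% of all genes called), and 5 without 3D-2D replicate 1 (37.6%). Gbp2, Gbp7, Irf1, B2m and Irgm1 were called without either of these libraries.

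Cells returned to 3D were also set against cells held in 2D again, the groups 3D-2D-3D and 3D-2D-2D. Here 4 members were called higher and 3 lower (40.4% of all genes tested were called, 19.8% higher and 20.6% lower), with a median of 0.14, against -0.01 for all genes. Cxcl10 had 1.13, 1.86 and 1.10 CPM in 3D-2D-3D, against 0.0842, 0.122 and 0 CPM in 3D-2D-2D. This rests on 108 reads in 3D-2D-3D and 2 reads in 3D-2D-2D, a ratio of 20.3 with an exact 95% counting interval of 5.50 to 170.1 (4.22 ± 1.29, adjusted p = 0.0118). Mx1 had 0.477, 0.545 and 0.968 CPM in 3D-2D-3D, against 0.0842, 0.245 and 0 CPM in 3D-2D-2D, or 56 and 3 reads, a ratio of 7.03 with an interval of 2.29 to 35.1 (2.67 ± 0.98, adjusted p = 0.0326). These intervals cover counting error only.

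Rsad2 had 3.65, 5.77 and 8.03 CPM in 3D-2D-3D, against 0.505, 0.735 and 0.910 CPM in 3D-2D-2D (3.02 ± 0.84, adjusted p = 0.00641). B2m had 788, 766 and 990 CPM in 3D-2D-3D, against 541, 556 and 554 CPM in 3D-2D-2D (0.62 ± 0.21, adjusted p = 0.0226). Both genes were higher in each 3D-2D-3D library. Stat2 had 45.7, 47.6 and 69.9 CPM in 3D-2D-3D, against 102, 103 and 103 CPM in 3D-2D-2D (-0.91 ± 0.36, adjusted p = 0.0466). Tap1 had 14.0, 14.8 and 26.7 CPM in 3D-2D-3D, against 30.1, 27.7 and 29.9 CPM in 3D-2D-2D (-0.66 ± 0.22, adjusted p = 0.0192). Tap2 had 33.6, 29.6 and 31.6 CPM in 3D-2D-3D, against 48.9, 49.5 and 44.8 CPM in 3D-2D-2D (-0.59 ± 0.20, adjusted p = 0.0191). These 3 genes were lower in each 3D-2D-3D library, and all 3 lost their calls when libraries were scaled by their totals alone. Ifitm3 (-0.68 ± 0.29) and H2-K1 (0.12 ± 0.31) were the most abundant members without a call. In all, 10 members were higher without overlap (31.3% of all genes) and 4 lower (32.4%). The count of calls was 4 without 3D-2D-3D replicate 2 (34.0% of all genes called), 2 without 3D-2D-2D replicate 1 (34.4%), 4 without 3D-2D-2D replicate 2 (33.5%) and 2 without 3D-2D-2D replicate 3 (34.4%). Endothelial markers summed to 27.1 to 38.4 CPM in 3D-2D-3D and 74.7 to 80.8 CPM in 3D-2D-2D, and their part in these values was not tested.

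At 5 days, Ifit3, Ifit2, Irgm1, Ifitm3, Ddx58 and Eif2ak2 were lower in 3D than in 2D cultures, and H2-D1 was higher. In 3D-5days against 2D-5days, 1 member was called higher and 6 lower (32.4% of all genes tested were called, 14.9% higher and 17.5% lower), with a median of -0.45, against 0.00 for all genes. The members' share of lower calls was thus near that of all genes. They covered 2 of 4 RNA sensors, 3 of 15 antiviral effectors and 1 of 6 GTPases. The libraries did not overlap for 6 members higher in 3D-5days (19.2% of all genes) and 14 lower (21.1%).

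Ifit3 had 8.23, 11.1 and 11.3 CPM in 3D-5days, against 38.9, 57.2 and 56.3 CPM in 2D-5days (-2.31 ± 0.72, adjusted p = 0.0173). Ifit2 had 8.90, 8.35 and 7.06 CPM in 3D-5days, against 37.5, 29.8 and 29 CPM in 2D-5days (-1.99 ± 0.29, adjusted p = 1.61e-05). Irgm1 had 29.6, 30.7 and 33.3 CPM in 3D-5days, against 112, 98.6 and 95.8 CPM in 2D-5days (-1.71 ± 0.33, adjusted p = 0.000329). In these 3 genes the groups were far apart and the 3D-5days libraries were alike. Ifitm3 fell by 1.22 (SE 0.29), Ddx58 by 1.13 (SE 0.29) and Eif2ak2, the kinase known as PKR that halts translation, by 0.79 (SE 0.24). H2-D1 had 301, 166 and 191 CPM in 3D-5days, against 71.8, 81.1 and 89.4 CPM in 2D-5days (1.44 ± 0.35, adjusted p = 0.00324). Every 3D-5days library was above every 2D-5days library, and replicate 1, with 12520 CPM of macrophage markers, was the highest. Macrophage markers were 3320 to 12520 CPM in 3D-5days and 786 to 3250 CPM in 2D-5days. Of these, 3 of 20 were called higher and 1 lower, beside 14.9% and 17.5% of all genes. Endothelial markers were 106.1 to 125 CPM in 3D-5days and 35.8 to 36.1 CPM in 2D-5days, with 8 of 10 called higher. Dendritic cell markers were 34.9 to 186 CPM in 3D-5days and 6.04 to 20.9 CPM in 2D-5days. Of that list Itgax reached 180 CPM over all libraries, and no other marker passed 10.8 CPM. The part of these cell types in the value was not tested. B2m (0.54 ± 0.21) and H2-K1 (0.64 ± 0.32) were the most abundant members without a call. With the replicate number as a block 23 members were called, 8 higher and 15 lower (39.6% of all genes called), among them Isg15 (-1.69), Ifit1 (-1.19), Psmb9 (1.43) and Irf8 (1.66).

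The difference between 3D and 2D was itself compared between cultures of 5 days and cultures with no stated time. Of the 39 members 0 were called higher and 1 lower (25.5% of all genes tested were called, 12.3% higher and 13.2% lower). The member was Tap1, at -0.32 ± 0.22 for 3D-5days against 2D-5days and at 0.59 ± 0.22 for 3D against 2D, a difference of -0.90 ± 0.31 (adjusted p = 0.0337). Tap1 had 28.4, 30.7 and 31.0 CPM in 3D-5days, against 33.1, 40.9 and 38.2 CPM in 2D-5days. Without 2D replicate 3, 14 members were called, all below 0 (25.4% of all genes called), among them Ifit3 (-3.96), Rtp4 (-3.45), Oasl2 (-2.99) and Irf7 (-2.83). DESeq2 called 2 members (27.5% of all genes). Ifit2 and Irgm1 were called lower in 3D at both, and their differences of -0.69 ± 0.39 and -0.10 ± 0.45 were not called.

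On 2D substrates of 3 stiffnesses, edgeR called 0 of the 39 members and 0% of all genes in each of the 3 comparisons, and DESeq2 also called 0. At an unadjusted p under 0.05, 0 members passed in each, beside 0.584% of all genes for 2D-8kPa against 2D-0.5kPa, 1.72% for 2D-64kPa against 2D-8kPa and 1.25% for 2D-64kPa against 2D-0.5kPa. The medians of the members were 0.37, -0.31 and 0.01 in that order, beside 0.00, -0.01 and -0.01 for all genes. Ifit1, which binds foreign RNA caps, had 14.5, 21.6 and 4.32 CPM at 0.5 kPa, 57.4, 18.0 and 10.3 CPM at 8 kPa and 21.7, 13.5 and 5.58 CPM at 64 kPa. The ranges of the 3 groups overlapped, while replicate 1 at 8 kPa lay above every library at 0.5 and 64 kPa. B2m had 443, 521 and 379 CPM at 0.5 kPa, 588, 456 and 408 CPM at 8 kPa and 456, 480 and 427 CPM at 64 kPa, and its log2 fold changes were 0.11 ± 0.21, -0.09 ± 0.21 and 0.02 ± 0.21. Ifitm3 was at 0.12 ± 0.28, -0.17 ± 0.28 and -0.05 ± 0.28. With the replicate number as a block, 5 members were called for 2D-64kPa against 2D-8kPa, 1 higher and 4 lower (4.73% of all genes called).

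Over all 9 comparisons and the difference of differences, 29 members were called at least once and 10 in none. The 10 were Irf7, Irf9, Ifih1, Isg15, Usp18, Ifi35, Bst2, Xaf1, Rtp4 and Igtp. The share of all genes called at least once was not counted, and 3D-2D against 3D alone called 56.5% of them. The counts of members are therefore not a result about the members. Isg15, a ubiquitin-like protein attached to other proteins, had 9.75, 8.99 and 24.5 CPM in 3D-2D-3D, 13.7, 12.4 and 13.2 CPM in 3D-2D-2D, 4.22 and 10.3 CPM in 3D-2D, 8.58, 9.07 and 6.63 CPM in 3D, and 3.08, 7.65 and 34.1 CPM in 2D. The 2D libraries spanned the values of all the other libraries named. Usp18, which strips Isg15 from proteins, had 1.50, 2.21 and 28.2 CPM in 2D. Irf7, which drives type I interferon genes, had 3.16, 3.86 and 40.8 CPM in 2D, and Bst2, which tethers budding viruses, had 16.8, 17.1 and 44.4 CPM. Replicate 3 of 2D was the high one in each. A p that misses the threshold does not show that the groups were equal in these genes.

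The rest of the pathway was read from 103 other genes, of which 84 were tested. The 12 interferon genes themselves were not tested, with 74 reads in all 29 libraries together. Ifnb1 had 3 reads and Ifng had 0, which allows a level of up to 0.00667 CPM over all libraries. The receptors Ifnar1, Ifnar2 and Ifngr2 were called in no comparison. Ifngr1 had 35.2 to 36.2 CPM in 3D-2D-3D, against 92.0 to 95.8 CPM in 3D-2D-2D (-1.39 ± 0.14, adjusted p = 5.21e-08). It was lower in 3D against 2D (-0.66 ± 0.14) and in 3D-5days against 2D-5days (-1.33 ± 0.14), and higher in 3D-2D against 3D (0.49 ± 0.15). Without overlap in any of these, the gamma receptor chain was higher in the compared group that ended in 2D. It had 38.4 to 55.3 CPM on the 2D substrates, which overlapped the 39.8 to 56.7 CPM of 3D-5days.

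Of the 84 other genes, 7 rose and 48 fell in 3D-2D against 3D, beside 28.8% and 27.7% of all genes. In 3D-2D-3D against 3D-2D 37 rose and 8 fell (24.2% and 25.0% of all genes), and in 3D against 2D 21 rose and 9 fell (26.7% and 27.3%). The counts were 2 and 16 in 3D-2D against 2D (6.85% and 7.54%), 7 and 12 in 3D-2D-3D against 3D-2D-2D (19.8% and 20.6%) and 6 and 16 at 5 days (14.9% and 17.5%). Gbp6, a further guanylate-binding protein, had 0.167 and 0.602 CPM in 3D-2D, against 6.86, 7.50 and 8.68 CPM in 3D (-4.33 ± 0.83, adjusted p = 0.00014). It had 6.21, 5.90 and 9.77 CPM in 3D-2D-3D (4.26 ± 0.82 against 3D-2D). The 3D-2D pair was far below both, and the 3D-2D-3D and 3D libraries overlapped. Nlrc5, a co-activator of class I genes, had 2.17 and 2.06 CPM in 3D-2D, against 18.0, 14.6 and 3.47 CPM in 3D (-2.50 ± 0.64), with replicate 3 of 3D the low one. Of 11 tested class I presentation genes beyond the members, 7 fell in 3D-2D against 3D and 0 rose. Tapbp (-1.67 ± 0.26) and H2-T23 (-1.68 ± 0.43) were among them, and both rose in 3D-2D-3D against 3D-2D (1.79 ± 0.26 and 1.83 ± 0.43). Cd274, the checkpoint ligand PD-L1, had 47.4, 10.9 and 12.9 CPM in 3D-5days, against 1.65, 1.54 and 1.24 CPM in 2D-5days (3.99 ± 0.89, adjusted p = 0.0014), highest in the library with the highest macrophage marker level. Ifitm1, a relative of Ifitm3, had 0.111, 0.334 and 0.199 CPM in 3D-5days, against 3.31, 4.37 and 4.75 CPM in 2D-5days (-4.17 ± 0.41, adjusted p = 6.70e-08). The class II presentation genes gave 4 tested genes, and 2 of these rose in 3D against 2D (H2-DMa, 1.01 ± 0.30, and H2-DMb1, 1.44 ± 0.51). H2-DMa had 6.81, 6.02 and 2.15 CPM in 3D, against 2.25, 2.29 and 2.78 CPM in 2D, and H2-DMb1 had 7.57, 6.73 and 1.28 CPM in 3D, against 2.41, 2.21 and 1.21 CPM in 2D. Both overlapped between the groups, and replicate 3 of 3D was low in both, as it was in macrophage markers, whose part was not tested. The members Ifit1 and Ifit3, H2-K1 and H2-D1, Oas1a and the guanylate-binding proteins have close copies in the mouse genome, and reads could have been split between copies. Whether counting used the strand is not stated, so overlapping antisense reads cannot be told apart.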

How the data were processed

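The authors deposited raw read counts per gene symbol for all libraries in 1 table. The submitters' processing notes name TopHat, HTSeq, Bowtie and MACS2, without versions or roles, and build mm10. The sources used here do not give the strand setting. The 5 summary lines of the table were left out of totals and tests; they held 13.99 to 28.4% of reads as not unique, 4.84 to 10.0% as no feature and 0.881 to 1.06% as ambiguous. Of 24421 genes, 14036 passed edgeR's filterByExpr.

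All 29 libraries were fitted in 1 model with a mean for each of the 10 groups, TMM normalization (factors 0.868 to 1.10) and edgeR 4.0.16's robust quasi-likelihood test in R 4.3.3. P-values were adjusted by Benjamini-Hochberg over all genes, and 0.05 was the threshold. A standard error is the size of the log2 fold change divided by the square root of F. For log2 CPM the prior count was set to 2. Alternatives used DESeq2 1.42.0, other scalings and filters, single libraries left out, the compared groups only with or without a replicate block, and replicates apart. The fit was also tested on simulated counts of 3D against 2D over 14036 genes. It recovered 63% of genes changed by 1 on the log2 scale and 100% of those changed by 2, and 5.23% of its calls were false. Every simulated gene had the same spread beyond counting error, and genes of low level were not among those changed. The recovery is therefore not known for members with few reads or a wider spread.

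The members and the lists of markers and other pathway genes were chosen with earlier results of these data known. Named in each comparison are the called members, with values for the 6 largest changes in each direction and library values for the first 3, and the 2 most abundant members not called. From the lists of other genes, up to 3 called genes with large changes and the receptors are named. 1 gene of that rule is not reported here. Genes beyond this rule, such as Ifi47, were chosen after their values were seen. Labels give the same replicate numbers in several groups. Same-numbered libraries deviated together, with every correlation of deviations over 0.1, in 3D against 2D (0.141, 0.230 and 0.232), at 5 days (0.572, 0.288 and 0.337) and on the substrates, so counts with the block are given there. The highest correlation with another number was larger in some cases (0.165 for replicate 1 of 3D against 2D, 0.317 and 0.346 for replicates 2 and 3 at 5 days, up to 0.530 on the substrates). Text and figures were made with Python 3.11.15, pandas 2.3.3 and matplotlib 3.10.9.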

Additional observations from a re-analysis of the deposited data

Results flagged for a closer look

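The difference between 3D and 2D differed between the cultures of 5 days and those with no stated time for Tap1, by -0.90 on the log2 scale in the test of the difference itself (edgeR adjusted p = 0.0337). Tap1 was at -0.32 in 3D-5days against 2D-5days and at 0.59 in 3D against 2D. The call was lost in 11 of the alternatives. Groups of 3 or 2 libraries are too small for a check of single outlying libraries.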

How the results depend on the processing

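Of 43 named called values, 39 lost their call in at least 1 alternative. Ifit2 and Irgm1 in 3D against 2D, Ifit2 at 5 days and Irgm1 in 3D-2D against 3D kept direction and call in every alternative run. Of 671 pairs of value and alternative, 507 kept the call, 159 lost it in the same direction and 5 turned sign. The cause was not tested. Counts of called members in 3D against 2D were 2 with the most alike libraries summed (34.7% of all genes called). They were 5 in the compared groups without a block (40.0%) and 23 in replicates 1 and 2 only (50.5%). In 3D-2D against 3D, summing left 1 sample of 3D-2D, so no count is given, and effect sizes against 3D replicate 3 alone stand above. In 3D-2D against 2D the counts were 9 by DESeq2 (18.1% of all genes called) and 1 in the compared groups alone (3.47%). In 3D-2D-3D against 3D-2D the count was 9 in replicates 1 and 2 only (44.9%), and in 3D-2D-3D against 3D-2D-2D it was 0 summed (20.1%). At 5 days the counts were 2 summed (13.9%) and 12 in the compared groups alone (22.1%). For the difference of differences they were 0 summed (5.61%), 2 by DESeq2 (27.5%) and 2 with library totals (24.8%). The 189 calls of other pathway genes became 61 summed and 114 in replicate 3 only. Summing leaves fewer samples to test.

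Where a comparison has 1 library in an arm, the spread comes from the other groups. With the replicate block the counts were 3 in 3D against 2D, 23 at 5 days and 5 in 2D-64kPa against 2D-8kPa. In the comparisons whose libraries share only a number they were 16 in 3D-2D against 2D (45.2% of all genes called), 23 in 3D-2D-3D against 3D-2D (67.9%) and 11 in 3D-2D-3D against 3D-2D-2D (50.1%). Correlations of same-numbered libraries there were 0.004, -0.005 and -0.008 for 3D-2D-3D and 3D-2D-2D.

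Leaving out 1 library at a time gave 7 to 22 called members in 3D against 2D (47.4 to 52.4% of all genes called). It gave 10 to 24 in 3D-2D against 3D (41.0 to 55.9%) and 1 to 8 in 3D-2D against 2D (1.25 to 20.6%). The range was 5 to 15 in 3D-2D-3D against 3D-2D (36.3 to 44.9%) and 2 to 8 in 3D-2D-3D against 3D-2D-2D (33.5 to 36.8%). At 5 days it was 6 to 9 (26.0 to 32.5%), and on the substrates 0 (0%). For the difference of differences it was 0 to 14 (21.0 to 27.7%). Among other pathway genes it was 134 to 200, with no share of all genes counted.

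Some named values turned sign. In 3D against 2D, Ddx58 was at 0.066 and Ifitm3 at 0.088 in replicates 1 and 2, and Psmb8 at -0.71, Psmb9 at -0.22 and H2-D1 at -0.12 in replicate 3. With 1 library left out, Ddx58 ranged over -0.85 to 0.049, Ifitm3 over -0.45 to 0.095 and Cxcl10 over -3.53 to 0.057, each highest without 2D replicate 3. In 3D-2D against 3D, Ifitm3 was at -0.095 by library totals and Oas1a at 0.23 against 3D replicate 3 alone, and leaving out 1 library gave -0.14 to 0.43 for Ddx58 and -0.094 to 0.18 for Ifitm3. In 3D-2D against 2D, Ifitm3 was at 0.14 with the block and 0.14 in replicates 1 and 2, with -0.40 to 0.14 when 1 library was left out, and B2m was at -0.40 against 2D replicate 3 alone. In 3D-2D-3D against 3D-2D, Ifitm3 was at -0.051 with the block and -0.079 in replicates 1 and 2, with -0.079 to 0.47 when 1 library was left out. H2-K1 was at -0.018 in 3D-2D-3D replicate 3 alone against 3D-2D-2D. On the substrates no value was called. For 2D-8kPa against 2D-0.5kPa, Ifitm3 was at -0.10 in replicate 3, and leaving out 1 library gave -0.22 to 0.29 for Ifitm3 and -0.054 to 0.23 for B2m. For 2D-64kPa against 2D-8kPa, B2m was at 0.067 in replicate 3, with -0.34 to 0.17 for Ifitm3 and -0.19 to 0.074 for B2m. For 2D-64kPa against 2D-0.5kPa, B2m was at -0.054 in replicates 1 and 2, with -0.18 to 0.085 for Ifitm3 and -0.081 to 0.15 for B2m.

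With totals as the only scaling, the all-gene median was 0.22 in 3D-2D-3D against 3D-2D-2D, 0.16 in 3D against 2D, -0.16 in 3D-2D against 3D and 0.13 at 5 days. Mx1, Cxcl10 and Oas1a rest on few reads in some groups, which limits their fold changes.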
